A study of Sus scrofa with 20 samples.

Results

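The organic ion transporters are membrane proteins that carry drugs, toxins, hormones, bile salts, carnitine and other charged small molecules across the plasma membrane. They were taken here as every gene of the count table whose pig symbol begins with SLC22A, SLCO plus a number, or SLC47A, which gave 27 of the 31907 genes counted, 16 of them SLC22A, 9 SLCO and 2 SLC47A. Their messenger RNA was measured by RNA-seq in backfat and liver of Nanchukmacdon boars, a breed developed in Korea from the Jeju native black pig. There were 5 backfat and 5 liver libraries from bulk frozen tissue of boars labelled WT and of normal disease state. All libraries carry the same age of 22 months in the sample labels, while the methods give another average age. The labels name no allele or treatment that differs between the tissues. Libraries are named by tissue and by the boar number in the count table (65, 67, 69, 71 and 72), and values of 5 libraries are given in that order.

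The SLC22 family holds the organic cation transporters, which take up monoamines, thiamine and drugs such as metformin, the carnitine transporters, and the organic anion transporters, which are best known from the kidney. The SLCO genes encode the organic anion transporting polypeptides (OATPs), sodium-independent uptake carriers for bile salts, steroid conjugates, thyroid hormones and prostaglandins. The SLC47 genes encode the MATE exporters, which release organic cations into bile and urine in exchange for protons. In the liver, uptake carriers sit on the blood side of the hepatocyte and deliver solutes to enzymes and to pumps of the bile canaliculus. Adipocytes are known to remove noradrenaline through a low-affinity monoamine carrier, the function with which SLC22A3 is associated.

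The tissues could be told from one another by their defining genes. The summed level of 7 adipocyte markers was between 15140 and 22182 CPM (counts scaled to a common library total) in backfat and between 9.04 and 17.9 CPM in liver. For 9 hepatocyte markers the sum lay between 23983 and 106908 CPM in liver and between 205 and 750 CPM in backfat. Totals were between 43820042 and 61772737 counts per library. Mitochondrial genes took between 6.38% and 20.2% of the counts in 9 libraries and 44.5% in the liver library of boar 67. That library also had the lowest hepatocyte sum of the livers, 23983 CPM against 81002 to 106908 CPM, and 114 CPM of skeletal muscle markers, against at most 1.12 CPM in the other livers. Its red cell sum, 1283 CPM against 62.8 to 284 CPM, and its bile duct sum, 52.4 CPM against 22.9 to 33.1 CPM, were also the highest of the livers. In backfat the skeletal muscle sum was 573, 146, 184, 30.9 and 11.7 CPM. The backfat library of boar 69 had the highest hepatocyte sum of the backfats, 750 CPM against 205 to 298 CPM. For some transporters, values without 1 of these libraries are given too, and the calls without both are given below.

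SLC22A3 and SLC22A17 were both higher in backfat, and SLC22A7 and SLC22A23 both higher in liver. Within each pair, however, the stretches before the annotated gene starts are of unlike composition. The windows of these 4 genes are printed here for that contrast. Each is the 250 bases before the outermost RefSeq start of the gene in Sscrofa11.1. RefSeq holds 2 transcripts of SLC22A3, 4 of SLC22A17, 2 of SLC22A7 and 3 of SLC22A23. Which start was used in these tissues was not tested. Bases run 5′ to 3′ on the strand of the gene, with every CG dinucleotide, the target of CpG methylation, in capitals.
SLC22A3: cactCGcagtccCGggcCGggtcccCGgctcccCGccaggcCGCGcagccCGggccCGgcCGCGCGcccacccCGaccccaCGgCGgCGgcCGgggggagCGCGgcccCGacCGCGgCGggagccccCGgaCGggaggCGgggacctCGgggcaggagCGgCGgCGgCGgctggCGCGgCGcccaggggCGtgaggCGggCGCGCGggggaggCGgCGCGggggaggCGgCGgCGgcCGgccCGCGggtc
SLC22A17: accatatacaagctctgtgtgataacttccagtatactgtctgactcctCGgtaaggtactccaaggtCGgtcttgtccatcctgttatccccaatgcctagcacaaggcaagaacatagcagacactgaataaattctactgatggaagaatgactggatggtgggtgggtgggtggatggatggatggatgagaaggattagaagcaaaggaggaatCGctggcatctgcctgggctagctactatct
SLC22A7: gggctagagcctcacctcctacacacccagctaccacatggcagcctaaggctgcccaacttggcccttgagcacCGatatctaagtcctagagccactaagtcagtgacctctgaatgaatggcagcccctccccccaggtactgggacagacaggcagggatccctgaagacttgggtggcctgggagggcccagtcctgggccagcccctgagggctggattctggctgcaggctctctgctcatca
SLC22A23: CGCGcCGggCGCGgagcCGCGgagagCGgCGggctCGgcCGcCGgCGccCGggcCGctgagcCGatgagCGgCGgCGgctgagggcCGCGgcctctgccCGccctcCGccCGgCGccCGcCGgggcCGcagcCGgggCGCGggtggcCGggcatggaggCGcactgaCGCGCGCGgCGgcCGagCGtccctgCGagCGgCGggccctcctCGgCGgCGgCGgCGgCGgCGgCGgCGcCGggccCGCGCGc
These windows lie at chr1:7207396-7207645 (minus strand) for SLC22A3, chr7:75734474-75734723 (plus strand) for SLC22A17, chr7:38328224-38328473 (plus strand) for SLC22A7 and chr7:2131779-2132028 (minus strand) for SLC22A23. CG occurred 48 times in the SLC22A3 window and 3 times in that of SLC22A17. It occurred 1 time in the SLC22A7 window and 56 times in that of SLC22A23. Over the same window of 19556 protein-coding genes, 95.8% held at least 1 CG and the median was 12. Fewer CG than in SLC22A23 were found in 99.9% of those windows, and fewer than in SLC22A3 in 99.3%. G and C made up 89.2% of the SLC22A3 window and 88.8% of the SLC22A23 window, against 47.6% for SLC22A17, 60.8% for SLC22A7 and a median of 57.6%. Among the 12 transporters called below, the number of CG ran from 0 (SLCO2B1) to 56 (SLC22A23) on the liver side and from 3 (SLC22A17) to 48 (SLC22A3) on the backfat side, so each side held windows poor and rich in CG. Methylation of these windows was not analysed here.

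To see which transporters differ between the tissues, counts were compared by edgeR's quasi-likelihood test over all genes, and a gene was called when its Benjamini-Hochberg adjusted p was at most 0.05 and its log2 fold change at least 2 in either direction. Levels of single genes below are CPM after TMM normalization, and fold changes are backfat over liver. Of the 27 genes, 20 had enough counts to be tested and 7 did not (SLC22A2, SLC22A6, SLC22A8, SLC22A11, SLC22A12, SLCO1C1 and SLCO5A1). Of the 20, 6 were called higher in liver, 6 higher in backfat and 8 were not called. The 12 called were 60% of those tested, where 22.3% of all 16275 genes tested were called. By direction, 30% were called higher in each tissue, against 11.2% of all genes for liver and 11.1% for backfat. The median log2 fold change of the 20 was 0.40, and that of all genes 0.00014. Their median size regardless of sign was 2.47, against 0.81 for all genes. Between the tissues, the libraries did not overlap for 14 of the 20, 70%, 7 in each direction, against 42.6% of all genes tested. A gene can enter the test through a high level in 1 tissue alone, and these counts are given as a description. In bulk tissue, fewer cells of a type and less RNA per cell cannot be told apart.

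**Figure D1:**
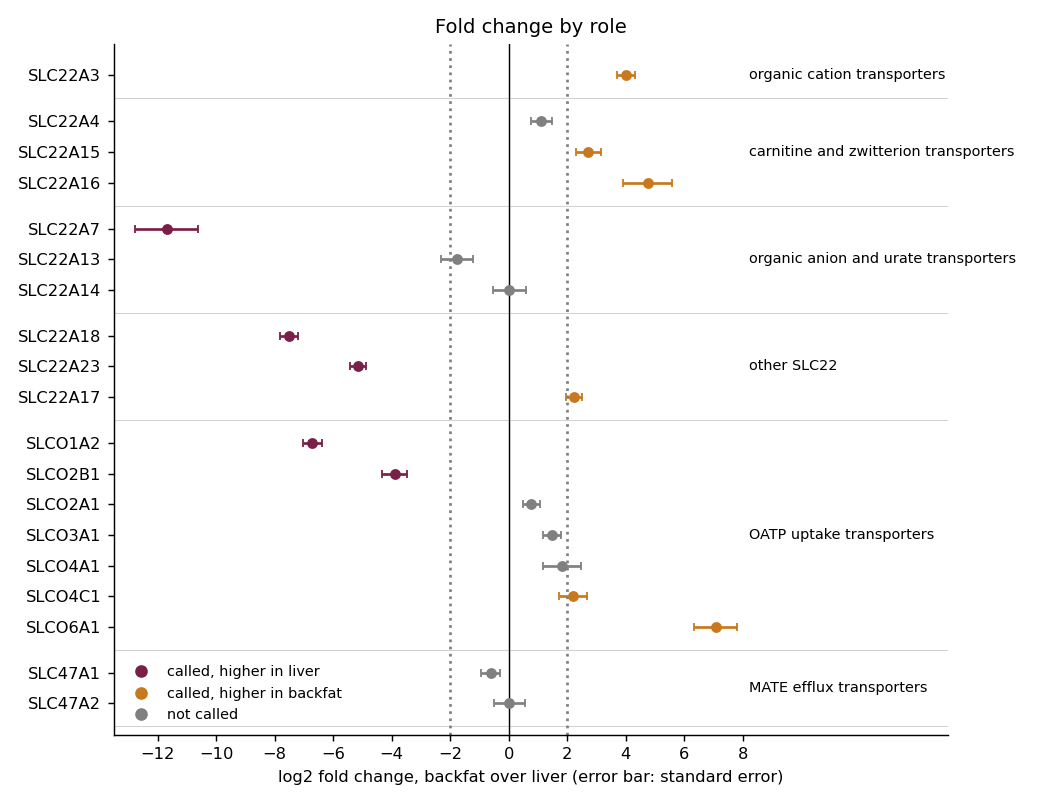
Log2 fold change (backfat over liver, x axis) of 19 of the transporters tested, grouped by role, with the standard error as error bar and dotted lines at the threshold of 2 in each direction. The liver side reaches -11.69 (SLC22A7), the backfat side 7.06 (SLCO6A1), and the other SLC22 and OATP groups hold genes on both sides. SLCO6A1 had 0 counts in every liver, so the size of its fold depends on the method. DESeq2 gave 6.03 and limma-voom 4.63.

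Of the organic cation transporters, SLC22A3 was called higher in backfat. SLC22A3 (chr1:7105486-7207395, minus strand, 11 exons) encodes OCT3, the extraneuronal carrier of noradrenaline, histamine and other monoamines. Backfat held 28.9, 25.2, 26.9, 26.1 and 21.1 CPM of it, and liver 2.52, 1.35, 2.19, 0.821 and 1.03 CPM. The lowest backfat lay well above the highest liver, and the backfats differed little among themselves, with a coefficient of variation of 11.3%. Its log2 fold change was 4.01 (SE 0.31, adjusted p = 3.47e-07), with 25.6 ± 2.90 CPM in backfat and 1.58 ± 0.738 CPM in liver (SD, n = 5 each). The span of SLC22A3 overlaps PLG, the plasminogen gene, but no exon of either overlaps an exon of the other.

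SLC22A2 (chr1:7289278-7323418, plus strand, 11 exons), which encodes the renal cation carrier OCT2, lies next to SLC22A3 with a gap in RefSeq of 81882 bases and no protein-coding gene within it, and had too few counts to be tested. It had 340 counts in the liver of boar 65, 40 in that of boar 67 and 0 in the other 3 livers, and 3, 2, 6, 0 and 2 counts in backfat. In liver the reads thus came from 2 of 5 boars, and mostly from 1. The sum of 7 kidney markers, 1 of them at 0 in all livers, was 0.548 CPM in the liver of boar 65, within the 0.260 to 0.928 CPM of the 5 livers. When no filter on low counts was used, edgeR gave SLC22A2 a log2 fold change of -5.45 (adjusted p = 0.0124), and DESeq2 gave -5.59 (adjusted p = 0.0260).

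**Figure D2:**
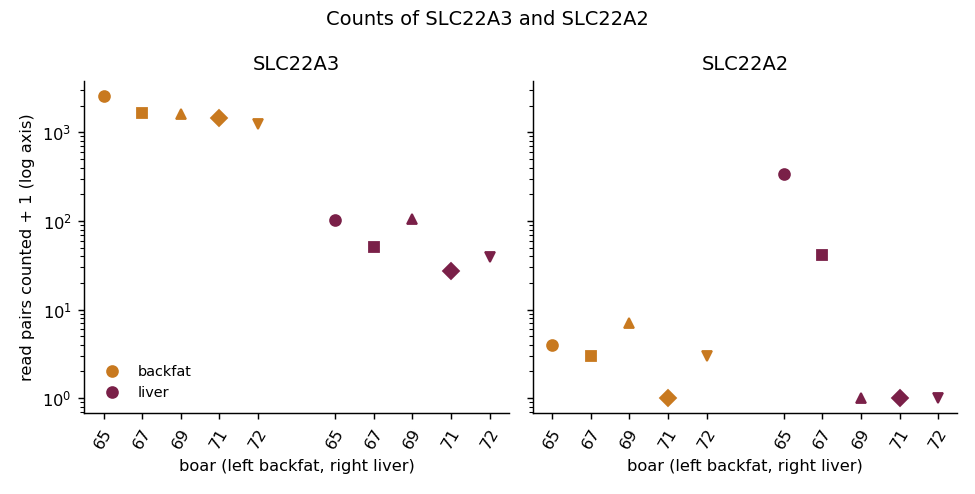
Read pairs counted in each library plus 1 (log axis) for the neighbouring genes SLC22A3 and SLC22A2, by boar, with backfat on the left of each panel. SLC22A3 is high in all 5 backfats, while SLC22A2 reaches 340 counts in 1 liver and 40 in another.

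Among the carriers of carnitine and other zwitterions, 2 were called higher in backfat and 1 was not called. SLC22A16 (chr1:76423386-76468267, minus strand, 8 exons) encodes CT2, a carnitine carrier known from the testis. Levels in backfat were 12.1, 1.98, 7.62, 13.1 and 9.74 CPM. In liver they were 0.175, 1.24, 0.0425, 0.0948 and 0.108 CPM. The tissues did not overlap, but boar 67 had both the lowest backfat and the highest liver. From these values the log2 fold change was 4.75 (SE 0.84, adjusted p = 0.000402), with means of 8.92 ± 4.43 CPM in backfat and 0.332 ± 0.511 CPM in liver (SD, n = 5 each). Without the liver of boar 67 it was 6.36 (adjusted p = 6.21e-06). That liver had the highest skeletal muscle, red cell and bile duct sums of the livers, whose part in the level was not tested. The backfat of boar 67 held 146 CPM of skeletal muscle markers, within the 11.7 to 573 CPM of the backfats. The 5 testis markers summed to at most 0.0834 CPM in any backfat, and 2 of them were at 0 in all backfats.

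SLC22A15 (chr4:104662844-104755667, minus strand), a less studied carrier of carnitine and ergothioneine, was at 4.48, 1.68, 3.97, 2.16 and 1.99 CPM in backfat. Its liver levels were 0.349, 0.756, 0.510, 0.253 and 0.298 CPM. All backfats were above all livers, with the backfats of boars 65 and 69 the highest. These 2 backfats also had the highest skeletal muscle sums, 573 and 184 CPM against 11.7 to 146 CPM, whose part in the level was not tested. The log2 fold change was 2.71 (SE 0.43, adjusted p = 0.000157). SLC22A4 (chr2:134594843-134641403, plus strand) encodes OCTN1, the ergothioneine carrier, and was not called, with 0.875 ± 0.259 CPM in backfat and 0.404 ± 0.116 CPM in liver (SD, n = 5 each), overlapping libraries and a log2 fold change of 1.12 (SE 0.36, adjusted p = 0.0200). With the boar as a block its adjusted p was 0.0621, and it was 0.0516 without the backfat of boar 65 and 0.0588 without the liver of boar 72. The counting did not use strand, and exons on the opposite strand overlap both genes, LOC102165975 for SLC22A15 and P4HA2, a collagen hydroxylase, and LOC102157444 for SLC22A4. SLC22A5, the high-affinity carnitine carrier, was not analysed here.

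Of the 7 organic anion and urate transporters, SLC22A7 was the one called, and 4 had too few counts to be tested. SLC22A7 (chr7:38328474-38334879, plus strand, 9 exons) encodes OAT2, which carries cyclic nucleotides, prostaglandins and other organic anions. The liver libraries held 1155, 144, 1215, 857 and 995 CPM. In backfat it was at 0.158, 0.244, 0.824, 0 and 0.0858 CPM. The liver of boar 67 was the lowest by a wide margin, the backfat of boar 69 was the highest backfat, and the tissues did not approach each other. A log2 fold change of -11.69 (SE 1.09, adjusted p = 1.84e-06) was obtained, from 0.262 ± 0.327 CPM in backfat to 873 ± 431 CPM in liver (SD, n = 5 each). It was -12.72 without the backfat of boar 69 and -12.02 without the liver of boar 67. Exons of CRIP3 on the opposite strand overlap SLC22A7.

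SLC22A13 (chr13:23120013-23129183, plus strand), which encodes a urate and nicotinate carrier, was higher in all 5 livers (0.621 to 1.72 CPM) than in any backfat (0.0336 to 0.442 CPM). Its log2 fold change of -1.76 (SE 0.55, adjusted p = 0.0155) was under the fold threshold, and that of limma-voom, -2.02, was past it. Scaled by library size alone, it was -1.08 (adjusted p = 0.123). The neighbouring SLC22A14 (19740 bases away) had 0.281 ± 0.131 CPM in backfat and 0.274 ± 0.190 CPM in liver (SD, n = 5 each) and a log2 fold change of 0.02 (SE 0.56, adjusted p = 0.975), whose sign turned with the scaling. The renal anion exchangers SLC22A6 and SLC22A8 and the urate exchangers SLC22A11 and SLC22A12 lie in 2 pairs on chromosome 2. SLC22A6 had 11, 0, 5, 2 and 3 counts in backfat and 1 count in 1 liver, and with no filter edgeR gave it a log2 fold change of 3.12 (adjusted p = 0.0465), where DESeq2 gave 3.03 (adjusted p = 0.105). SLC22A8 had at most 7 counts in any library, SLC22A12 had 1 count in 1 backfat, and SLC22A11 had 0 in all 10, where a count of 0 allows up to 3 counts. These floors are between 0.0338 and 0.0948 CPM by library and cover counting error only.

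The remaining SLC22 genes are more distant relatives, and all 3 were called. SLC22A18 (chr2:2032370-2055756, plus strand, 10 exons), a gene of a region that is imprinted in humans, was at 172, 142, 139, 159 and 137 CPM in liver. Backfat had 0.857, 0.824, 0.353, 0.811 and 1.22 CPM. The livers, that of boar 67 among them, lay close together, with the highest 1.26 times the lowest, and the backfat of boar 69 was the lowest of all. The log2 fold change was -7.52 (SE 0.31, adjusted p = 4.08e-09), with 0.813 ± 0.307 CPM in backfat and 149.7 ± 14.97 CPM in liver (SD, n = 5 each).

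SLC22A23 (chr7:1988690-2131778, minus strand, 11 exons) encodes an orphan member of the family with no established substrate. In liver it was at 84.4, 74.4, 69.8, 89.6 and 91.4 CPM, and in backfat at 3.47, 2.03, 1.26, 1.78 and 2.92 CPM. Again the livers were tightly grouped and the backfat of boar 69 was the lowest. Its log2 fold change was -5.15 (SE 0.28, adjusted p = 2.83e-08), from 2.29 ± 0.891 CPM to 81.9 ± 9.50 CPM (SD, n = 5 each).

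SLC22A17 (chr7:75734724-75741115, plus strand, 10 exons) encodes the lipocalin-2 receptor, an iron-handling protein. Backfat held 55.8, 47.9, 44.7, 66.3 and 63.7 CPM and liver 9.83, 19.0, 6.88, 14.0 and 9.85 CPM. The liver of boar 67 was the highest liver and still under every backfat. Between tissues the log2 fold change was 2.23 (SE 0.26, adjusted p = 1.27e-05), with 55.7 ± 9.47 CPM in backfat and 11.9 ± 4.69 CPM in liver (SD, n = 5 each).

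Of the 9 OATP genes, 2 were called higher in liver, 2 higher in backfat, 3 were not called and 2 were not tested. SLCO1A2 (chr5:52020303-52133132, plus strand, 16 exons) encodes a carrier of bile salts, steroid conjugates and thyroid hormones. Livers had 69.5, 27.0, 60.1, 33.4 and 49.1 CPM and backfats 0.564, 0.503, 0.505, 0.396 and 0.292 CPM. No backfat came near the lowest liver, that of boar 67. The log2 fold change was -6.71 (SE 0.34, adjusted p = 1.53e-08), from 0.452 ± 0.108 CPM to 47.8 ± 17.8 CPM (SD, n = 5 each). Exons of IAPP and PYROXD1 overlap it on the opposite strand.

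SLCO2B1 (chr9:9433978-9474248, plus strand, 16 exons) encodes a carrier of steroid sulfates and statins found in many tissues. It was at 381, 85.4, 537, 300.1 and 302 CPM in liver and at 31.0, 15.2, 26.7, 17.1 and 17.1 CPM in backfat. Per kilobase of exon, it had the highest backfat level of the genes called on the liver side. All livers were above all backfats, and the liver of boar 67 was the lowest of the livers. With 21.4 ± 7.00 CPM in backfat and 321 ± 163 CPM in liver (SD, n = 5 each), the log2 fold change was -3.90 (SE 0.44, adjusted p = 9.17e-06). Exons of LOC102160367 overlap it on the opposite strand.

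SLCO4C1 (chr2:107815058-107887399, minus strand, 13 exons) encodes a carrier of cardiac glycosides and thyroid hormones known from the kidney. In backfat its level was 1.78, 1.66, 2.46, 1.86 and 0.978 CPM, and in liver 0.374, 0.810, 0.297, 0.0948 and 0.298 CPM. The lowest backfat and the highest liver were close. Its log2 fold change was 2.21 (SE 0.48, adjusted p = 0.00181) and fell to 1.94, under the threshold, without the liver of boar 71. Without the backfat of boar 69 it was 2.06, and without the liver of boar 67 it was 2.65. LOC110255325 overlaps its exons on the same strand. The neighbouring SLCO6A1 (chr2:107920518-108017675, minus strand), a gene known from the testis, had 23, 23, 19, 19 and 19 counts in backfat and 0 in every liver. Its backfat level was 0.320 ± 0.0359 CPM (SD, n = 5), and with 3 counts allowed over the 5 livers the backfat level was at least 20.2-fold higher than that of liver (adjusted p = 5.86e-05). The 5 testis markers summed to between 0.0162 and 0.0834 CPM in the same backfats.

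The prostaglandin carrier SLCO2A1 (chr13:75108540-75189660, minus strand) had, per kilobase, the highest backfat level of the OATPs. Backfat levels were 37.4, 34.9, 55.7, 35.4 and 31.0 CPM and liver levels 25.2, 35.7, 25.5, 12.4 and 14.8 CPM. The tissues overlapped through the liver of boar 67. Its log2 fold change was 0.77 (SE 0.28, adjusted p = 0.0312), and the adjusted p was 0.0818 without the backfat of boar 69, 0.0688 without the liver of boar 71 and 0.0818 without that of boar 72. Without the liver of boar 67 the log2 fold change was 0.96 (adjusted p = 0.00534). SLCO3A1 (chr7:86777919-87103316, minus strand), another prostaglandin carrier, was higher in all 5 backfats (2.27 to 4.09 CPM) than in any liver (0.616 to 1.54 CPM), with a log2 fold change of 1.48 (SE 0.32, adjusted p = 0.00156). SLCO4A1 (chr17:61947636-61969391, plus strand), a thyroid hormone carrier, was at 1.29, 5.07, 1.95, 3.73 and 8.56 CPM in backfat and 0.524, 2.94, 0.297, 0.979 and 1.08 CPM in liver. Each boar had more in its backfat than in its liver, but the tissues overlapped. The log2 fold change was 1.82 (SE 0.64, adjusted p = 0.0282), and it passed the fold threshold at 2.49 without the liver of boar 67, at 2.06 without the backfat of boar 65 and at 2.01 without the backfat of boar 69. Leaving out any of 6 other libraries took its adjusted p above 0.05, to 0.0547 and 0.0878 without the backfats of boars 67 and 72, and to 0.0575, 0.0507, 0.0615 and 0.0607 without the livers of boars 65, 69, 71 and 72. Without the backfat of boar 72, the highest, the log2 fold change was 1.38. SLCO1C1 had between 1 and 3 counts in each backfat and 0 in each liver, and SLCO5A1 at most 14 counts, in the liver of boar 67. SLCO1B3 was not analysed here.

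Both MATE exporters were low and were not called. SLC47A1 was at 1.15 ± 0.373 CPM in backfat and 1.77 ± 0.506 CPM in liver (SD, n = 5 each), with a log2 fold change of -0.62 (SE 0.32, adjusted p = 0.118). The liver was above the backfat in each of the 5 boars, while the libraries of the tissues overlapped. When libraries were scaled by total counts alone, which shifted the median of all genes by 0.71, the value was 0.10. SLC47A2 was at 1.38 ± 0.478 CPM in backfat and 1.36 ± 1.16 CPM in liver, where the liver of boar 67 was the highest at 3.21 CPM. Its log2 fold change of 0.02 (SE 0.53, adjusted p = 0.974) changed sign with the scaling.

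**Figure D3:**
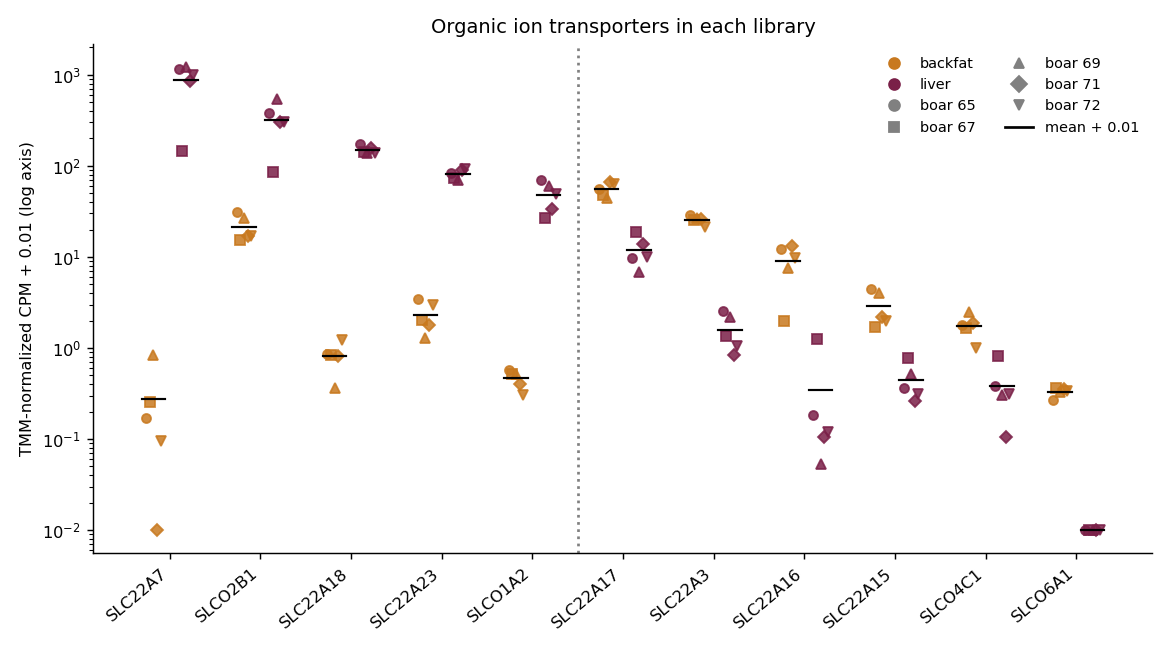
TMM-normalized CPM plus 0.01 (log axis) of 11 of the called transporters in each library, with colour for the tissue, marker shape for the boar and a bar at the mean. The 5 genes left of the dotted line were called higher in liver and the 6 on the right higher in backfat, and SLCO6A1 has 0 counts in all 5 livers.

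To compare levels between genes, CPM was divided by the counted exon length. Per kilobase, SLC22A7 was the highest in liver at 293 ± 144 CPM per kilobase, while SLCO2B1 was at 45.5 ± 23.1, SLC22A18 at 28.4 ± 2.84, SLC22A23 at 15.2 ± 1.77 and SLCO1A2 at 8.64 ± 3.21 (SD, n = 5). With the longest RefSeq transcript as length, SLCO2B1 was at 79.1 CPM per kilobase. The order of SLCO2B1 and SLC22A18 held in 4 of 5 livers. SLC22A18 and SLC22A23 did not overlap. Of the summed per-kilobase level of all 27 genes, by counted exon length, SLC22A7 took 50.3% ± 12.1 in liver (SD, n = 5).

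In backfat the first was SLC22A17 at 22.8 ± 3.88 CPM per kilobase, and its range did not overlap that of SLCO2A1, the next, at 9.41 ± 2.34. This gap depended on the length used, since with the longest RefSeq transcript SLC22A17 was at 21.1 and SLCO2A1 at 20.1 CPM per kilobase. SLC22A3 followed at 6.79 ± 0.768, SLC22A16 at 4.37 ± 2.17 and SLCO2B1 at 3.03 ± 0.990 (SD, n = 5). SLCO2A1 was above SLC22A3, and SLC22A3 above SLC22A16, in all 5 backfats, with overlapping ranges, while SLC22A16 was above SLCO2B1 in 3 of 5. SLC22A17 took 43.8% ± 5.64 of the summed per-kilobase level, SLCO2A1 18.2% ± 4.81 and SLC22A3 13.1% ± 1.89 (SD, n = 5). These shares use the counted exon length, so those of SLC22A17 and SLCO2A1 depend on it as their gap does. All 27 genes together took between 0.0460% and 0.230% of the counts of a liver library and between 0.0196% and 0.0267% of those of a backfat library. The liver of boar 67 had the lowest share of the livers. Mitochondrial counts, 44.5% of that library, are part of the total that the share is taken from.

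**Figure D4:**
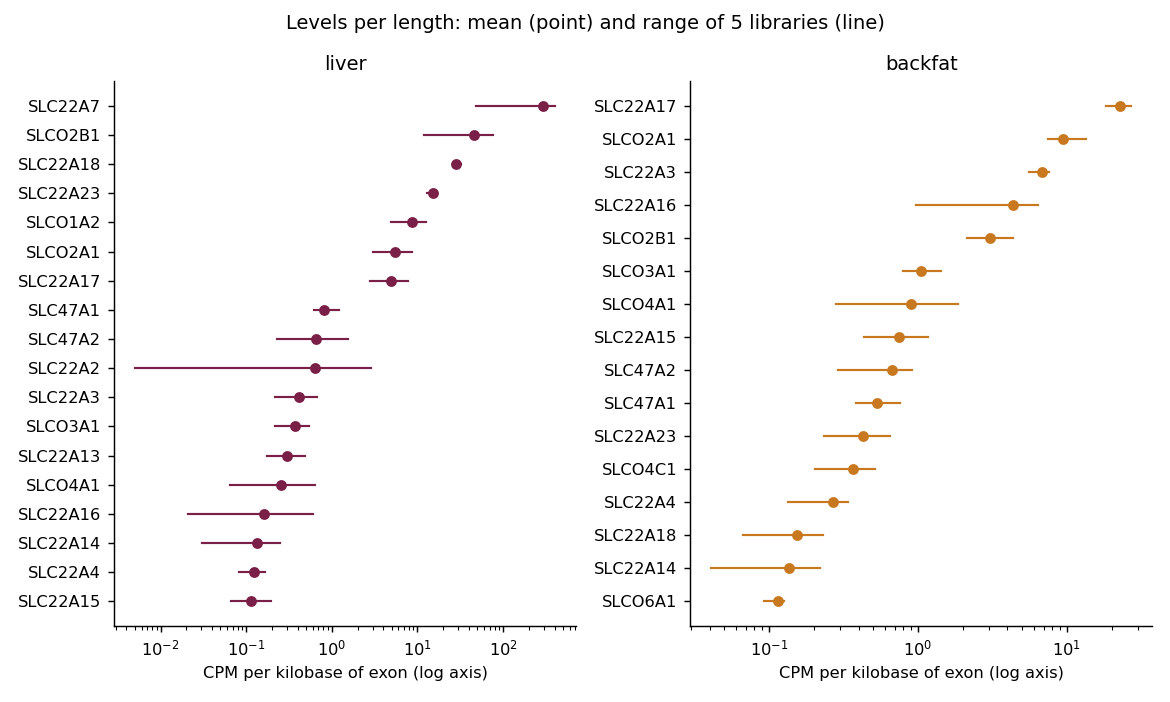
CPM per kilobase of counted exon (log axis) in liver and backfat for transporters with a mean of at least 0.1 in that tissue, with the mean as a point and the range of 5 libraries as a line. SLC22A7 leads in liver and SLC22A17 in backfat, and the line of SLC22A2 in liver, whose lowest value is 0, is drawn from 0.005.

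Genes called on the liver side stood at unlike levels in the 2 libraries that stand apart. Set against their own mean over the livers, the liver of boar 67 held 16.5% of SLC22A7, 26.6% of SLCO2B1 and 56.5% of SLCO1A2, but 95.0% of SLC22A18 and 90.8% of SLC22A23. Albumin (ALB), the main hepatocyte secretion product, was at 25.0% of its mean in the same library. Over the 9 hepatocyte markers the values there ran from 24.0% (TTR) to 56.6% (APOA1). In the backfat of boar 69, SLC22A7 was at 0.0944% of the liver mean, and ALB at 0.111%. The other backfats held at most 0.0280% for SLC22A7 and 0.00107% for ALB. APOA1 stood higher in backfat than the other markers, at 3.31% in that of boar 69 and 1.15% to 1.46% elsewhere. SLC22A18, SLC22A23, SLCO1A2 and SLCO2B1 were at 0.236%, 1.54%, 1.06% and 8.32% of the liver mean in the backfat of boar 69. For SLC22A18 and SLC22A23 this was the lowest of the 5 backfats. Over the 9 hepatocyte markers, every one was at its highest among the backfats in that of boar 69, apart from SERPINA1, which was at 0.131% there and 0.133% in the backfat of boar 72. The part of hepatocyte RNA, of skeletal muscle RNA and of mitochondrial counts in these levels was not tested. Without both libraries, an alternative chosen after seeing the data, 6 transporters were called higher in liver and 7 higher in backfat, the added one being SLCO4A1 at a log2 fold change of 2.70 (adjusted p = 0.00279).

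**Figure D5:**
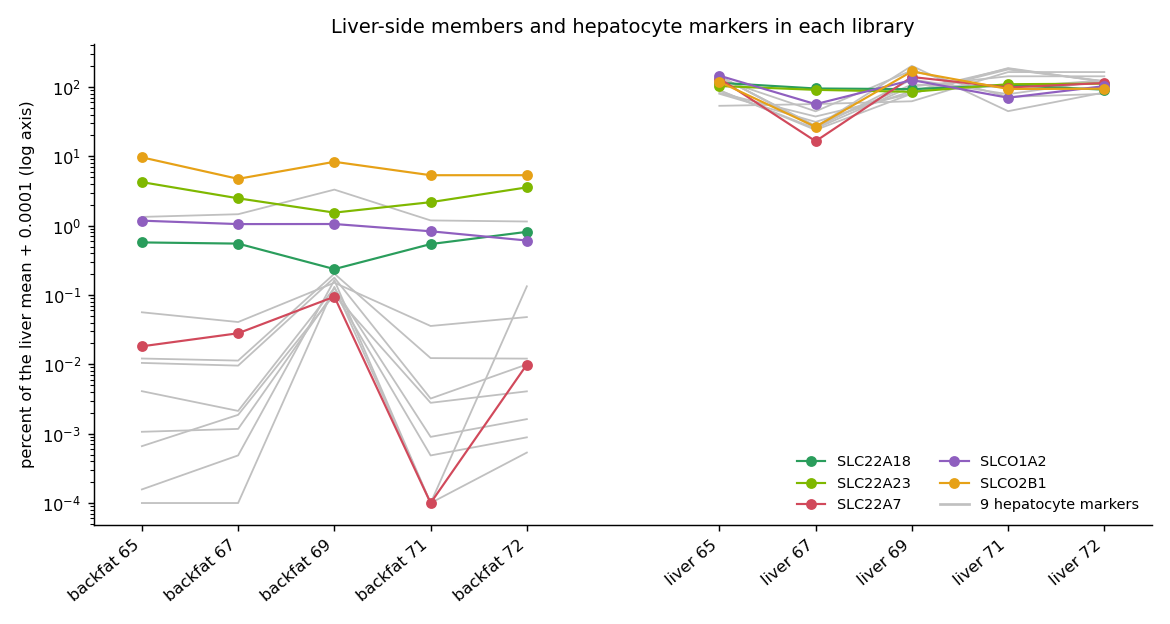
Level of 5 transporters called higher in liver (coloured) and of 9 hepatocyte markers (grey) in each library, as percent of the mean of the 5 livers plus 0.0001 (log axis). In the backfat of boar 69 SLC22A7 is at 0.0944%, above the other backfats, as most markers are, and in the liver of boar 67 SLC22A18 and SLC22A23 stay at 95.0% and 90.8%.

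Genes that act with these transporters were counted from lists by function. Of the genes listed, ABCB1, ABCB4, ABCC4, ABCG2, BSG, ALDH9A1 and MAOA had no matching symbol among the genes counted and were not tested. Their counts stand against 22.3% of all genes called, 11.2% higher in liver and 11.1% higher in backfat, and no list was tested against these shares. Of 6 ABC efflux pumps tested, 4 were called higher in liver and 0 higher in backfat, led by ABCB11, the bile salt export pump (log2 fold change -12.64), ABCC6 (-8.71) and ABCC2, the canalicular pump for conjugates (-8.38). Of 7 other bile salt and organic solute carriers tested, 5 were called higher in liver, with the largest changes in SLC17A1 (-12.42), SLC17A4 (-12.19) and SLC17A2, which had 0 counts in all backfats, and 2 higher in backfat. Transcription factors of hepatic transport gave 7 of 10 called higher in liver and 0 in backfat, the largest being NR1H4, the bile acid receptor (-13.15), HNF4A (-9.52) and NR1I2, the pregnane X receptor (-8.01). Among scaffold proteins and partners, 2 of 5 were called higher in liver, PDZK1 (-5.32) and NHERF1 (-2.67).

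Carnitine handling had 1 of 8 genes called, BBOX1, the last enzyme of carnitine synthesis (-9.86, higher in liver), and of its other 7 tested genes 4 passed the adjusted p but not the fold threshold. For monoamine handling, 2 of 6 were called higher in liver, with the largest change in MAOB, an enzyme that degrades monoamines (-9.47), and 1 higher in backfat, the serotonin carrier SLC6A4 (3.38). Of 7 prostaglandin genes 2 were called higher in liver, PTGR2 (-2.31) and HPGD (-2.29), which inactivate prostaglandins. Thyroid hormone handling gave 3 of 5 higher in liver, TTR (-12.15), DIO1 (-8.03) and DIO2 (-3.56). Of the urate enzymes, XDH, which makes urate, was called (-6.53) and UOX, which degrades it, was under the fold threshold (-1.91). By median log2 fold change the lists ran from -5.96 for the ABC pumps to -0.07 for monoamine handling, against 0.00014 for all genes. TTR is also one of the hepatocyte markers.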

How the data were processed

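RNA-seq of 5 backfat and 5 liver samples was used. Per the file headers and the methods, the authors used FastQC and Trimmomatic, HISAT2 for alignment to Sscrofa11.1 and featureCounts 2.0.1 for counting pairs over exons of Ensembl release 99, without strand and leaving out pairs that map or overlap more than 1 time. The deposited values are raw counts per gene, not normalized, with the exon length counted. Pairs in exons shared by genes of that annotation were thus left out, while reads from a gene on the other strand that it does not hold cannot be told apart from those of the gene counted. Calls of the bisulfite libraries carry no genomic position and were not used.

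Members and lists were chosen with earlier results of these data known. Symbols were matched by Ensembl identifier for 15029 of 31907 genes. 28 identifiers carry a symbol of these families, of which SLC22A5 was not analysed here, nor was SLCO1B3. Some genes of these families and lists are not reported here, although counts include them. Positions came from RefSeq by symbol for 25 of the 27, not for SLC47A1 and SLC47A2.

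Counts were filtered by filterByExpr with tissue as group, normalized by TMM and fitted by edgeR 4.0.16 (glmQLFit and glmQLFTest) in R 4.3.3 with tissue as the only term, over 16275 genes. Adjusted p-values are from this test unless another is named. Calls needed both thresholds, 0.05 for the adjusted p and 2 for the log2 fold change. Standard errors were derived from the F statistic. DESeq2 1.42.0, limma 3.58.1 (voom), glmTreat, other scalings and filters, the boar as a block and leaving out each library were alternatives. Leaving out both libraries that stood apart was added after the data were seen. Levels per kilobase were also taken with the longest RefSeq transcript as length. Marker sums are CPM without TMM. The scripts were tested on simulated data.

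Boar numbers come from the names of the columns, where each appears in both tissues, and the methods name 5 boars. The numbers were therefore taken to pair the tissues by animal. Deviations of a boar's libraries from their tissue means correlated at r = 0.0490 to 0.238 over genes, for 5 boars. By this measure backfat and liver were each other's best match for boars 65, 67 and 71. The backfat of boar 69 matched the liver of boar 72 best, and the liver of boar 69 the backfat of boar 65. The backfat of boar 72 matched its own liver, but that liver matched the backfat of boar 69 best. Titles of the samples number replicates but not boars, so columns were assigned to a tissue. Transporters to name in full were those called with a mean of at least 1 CPM in the higher tissue. Lists give at most 3 genes, those with the largest change. Figures were drawn with matplotlib 3.10.9 in Python 3.11.15.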

Additional observations from a re-analysis of the deposited data

Results flagged for a closer look

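Over 39 groups of 5 libraries with a mean of at least 0.1 CPM, 5 held a library farther from the others than Dixon's critical value allows. A rate of about 1 in 20 groups by chance holds for independent, normally distributed values. These groups share their libraries and some hold few counts, so the 5 are given as a description. The gap to the nearest library was 0.743 of the range for SLCO2A1 in the backfat of boar 69, at 55.7 CPM against 31.0 to 37.4 CPM. For SLC22A16 in the liver of boar 67 the ratio was 0.890, at 1.24 CPM against 0.0425 to 0.175 CPM. For SLCO5A1 in that liver it was 0.713, at 0.378 CPM against 0 to 0.108 CPM. SLC22A2 in the liver of boar 65 gave 0.873, at 8.48 CPM against 0 to 1.08 CPM. SLC47A1 in the liver of boar 71 gave 0.766, at 2.65 CPM against 1.35 to 1.65 CPM. The causes were not tested.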

How the results depend on the processing

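The count of 6 transporters higher in liver was between 4 and 7 under all alternatives run. The count of 6 higher in backfat became 3 by glmTreat against the fold threshold, 2 with at least 10 counts in every library, and 10 with no fold threshold. The filter of 10 counts left 12 transporters to test, against 20 in the main test, and those removed could not be called. All genes called, 3633, became 2413 by glmTreat, 1852 with at least 10 counts in every library, 6541 at a log2 fold change of at least 1 and 8955 with no fold threshold. Without 1 library at a time, 6 to 6 were called in liver, 5 to 7 in backfat and 3716 to 3964 of all genes. With the boar as a replicate block, 6 were called in liver, 6 in backfat and 3670 of all genes, and no transporter changed its call. DESeq2 called 7 and 6 and 4899 of all genes, and no filter on low counts gave 7 and 7 and 5247. By glmTreat, SLC22A15 (adjusted p = 0.0933), SLC22A17 (0.367) and SLCO4C1 (0.677) were no longer called. Scaled by library size alone, SLCO3A1 (2.23) and SLCO4A1 (2.57) passed the fold threshold, SLC22A13 lost its adjusted p (-1.08, adjusted p = 0.123) and SLC47A1 turned to 0.0963. The signs of SLC22A14 and SLC47A2 turned with DESeq2's size factors (-0.00279 and -0.0195) and with mitochondrial genes removed (-0.00223 and -0.0128). Leaving out 1 library moved SLC22A14 between -0.237 and 0.34 and SLC47A2 between -0.205 and 0.59. The causes were not tested. Transporters with few counts in a tissue, such as SLC22A7 in backfat, have folds limited by depth.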
